A study of Homo sapiens with 8 samples.

Results

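Replication-dependent histone genes were examined in SMAD3 ChIP-on-chip data of A549, an established cell line from a lung adenocarcinoma. The members were all genes on the promoter arrays whose symbol begins with HIST1H, HIST2H, HIST3H or HIST4H, which gave 64 of the 17133 annotated gene symbols and 945 of the 474411 probes. No measured value was used to choose them. Cells without stimulation (basal level) were compared with cells given 2 ng/ml TGFβ1 for up to 2 h, and all had been serum-starved beforehand. The time and the number of replicates are those of the labels. The methods of the study give the same time, while its results give a shorter time, and its text gives more replicates. Each condition had 2 replicates, called biological in the labels, and a replicate took 2 slides that carry different probes, so that there were 8 arrays. On every array DNA immunoprecipitated with a SMAD3 antibody (SMAD3 IP, Cy5) was compared with DNA of a control precipitation that the labels call anti-FLAG (mock IP, Cy3). The dyes were not swapped, so that a dye effect cannot be told apart from enrichment in any single ratio.

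Replication-dependent histone genes encode the linker histone H1 and the core histones H2A, H2B, H3 and H4, which package newly made DNA. They lie in clusters, are transcribed mainly in S phase, lack introns and end in a stem-loop in place of a poly(A) tail. Many H2A and H2B genes are arranged in divergent pairs that share a promoter. SMAD3 is a receptor-regulated SMAD that enters the nucleus after TGFβ1 binds its receptor, and it recognises the short SMAD box GTCT or its complement AGAC. In epithelial cells TGFβ1 can slow the passage into S phase, in which these genes are active.

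The 8 promoters below belong to genes whose values are described probe by probe or that moved in opposite directions in the conditions, chosen after their values were seen, and are shown with the SMAD boxes in capitals. Each run gives the 250 bases upstream of the start of the gene, 5′ to 3′ on the strand of the gene, from RefSeq (GRCh38.p14). The starts are those of RefSeq and may differ from the older starts on the arrays. The genes HIST1H2AK and HIST1H2BN form a divergent pair, and their runs overlap on opposite strands.
HIST1H1E (chr6:26156079-26156328, plus strand): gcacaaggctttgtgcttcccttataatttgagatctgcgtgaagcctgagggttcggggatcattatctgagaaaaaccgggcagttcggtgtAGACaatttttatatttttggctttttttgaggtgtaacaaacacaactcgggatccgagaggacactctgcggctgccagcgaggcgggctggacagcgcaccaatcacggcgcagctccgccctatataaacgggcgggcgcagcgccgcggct
HIST1H2BD (chr6:26157871-26158120, plus strand): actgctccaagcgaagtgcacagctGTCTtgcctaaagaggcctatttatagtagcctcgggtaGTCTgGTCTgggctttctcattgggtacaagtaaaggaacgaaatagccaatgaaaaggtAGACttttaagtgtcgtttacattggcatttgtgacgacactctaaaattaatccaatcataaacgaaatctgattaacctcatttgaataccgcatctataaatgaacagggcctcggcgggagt
HIST1H2AL (chr6:27865067-27865316, plus strand): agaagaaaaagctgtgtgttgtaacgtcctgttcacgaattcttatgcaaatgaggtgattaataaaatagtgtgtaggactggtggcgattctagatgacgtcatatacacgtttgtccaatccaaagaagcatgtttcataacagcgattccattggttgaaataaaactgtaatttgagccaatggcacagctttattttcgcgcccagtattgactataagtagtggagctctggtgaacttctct
HIST1H2AK (chr6:27838376-27838625, minus strand): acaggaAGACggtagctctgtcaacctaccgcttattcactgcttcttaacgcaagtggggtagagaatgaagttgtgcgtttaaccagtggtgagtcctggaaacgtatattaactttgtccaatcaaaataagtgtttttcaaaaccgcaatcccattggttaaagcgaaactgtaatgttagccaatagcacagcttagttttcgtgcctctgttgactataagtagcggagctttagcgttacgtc
HIST1H2BN (chr6:27838319-27838568, plus strand): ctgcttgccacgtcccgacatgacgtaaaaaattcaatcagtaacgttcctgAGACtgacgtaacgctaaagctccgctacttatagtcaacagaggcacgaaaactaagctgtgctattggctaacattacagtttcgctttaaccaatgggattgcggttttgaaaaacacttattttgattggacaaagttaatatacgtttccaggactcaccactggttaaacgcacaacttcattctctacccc
HIST3H3 (chr1:228425361-228425610, minus strand): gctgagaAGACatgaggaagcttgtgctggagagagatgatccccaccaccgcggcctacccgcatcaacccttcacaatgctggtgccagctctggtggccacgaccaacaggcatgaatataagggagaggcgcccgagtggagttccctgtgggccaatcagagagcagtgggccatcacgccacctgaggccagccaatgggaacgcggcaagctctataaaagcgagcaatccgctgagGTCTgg
HIST1H4G (chr6:26246997-26247246, minus strand): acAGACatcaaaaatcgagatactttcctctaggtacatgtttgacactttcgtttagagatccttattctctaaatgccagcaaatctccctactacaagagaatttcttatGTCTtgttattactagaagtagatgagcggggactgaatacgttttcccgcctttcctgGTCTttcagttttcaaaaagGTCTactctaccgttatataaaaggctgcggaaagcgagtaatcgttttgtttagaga
HIST4H4 (chr12:14771132-14771381, minus strand): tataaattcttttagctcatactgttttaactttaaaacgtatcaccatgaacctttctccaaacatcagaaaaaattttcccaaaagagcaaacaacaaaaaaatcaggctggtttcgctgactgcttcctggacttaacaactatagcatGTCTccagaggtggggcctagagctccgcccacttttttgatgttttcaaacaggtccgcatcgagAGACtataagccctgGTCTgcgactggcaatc
In these runs HIST1H2BD and HIST1H4G held 4 SMAD boxes each, HIST4H4 held 3, HIST3H3 held 2, HIST1H1E, HIST1H2AK and HIST1H2BN held 1 each, and HIST1H2AL held 0. A match of letters is a description of the sequence and not a binding site.

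RefSeq promoters (250 bases before and 50 after the start) were matched to 59 of the 64 members, and none was matched for HIST1H2AH, HIST1H3I, HIST1H3J, HIST1H4A and HIST1H4C. The GC content of the member promoters was low, with a median of 43.0% (range 36.3% to 59.7%), compared with 63.3% over 13552 matched promoters of all genes on the arrays. The SMAD box GTCT was found on either strand in 55 of the 59 promoters (93.2%) and in 82.7% of all promoters, with a median of 2 copies in both sets. The longer element CAGAC, which contains the box AGAC, was found in 34 member promoters (57.6%) and in 43.9% of all, and the GC-rich SMAD site GGCGC in 32 (54.2%) and 65.0%. Elements of histone promoters were more frequent. The CCAAT box was present in 51 member promoters (86.4%) and in 36.6% of all, the TATA box TATAAA in 40 (67.8%) and in 8.97% of all, and the octamer ATTTGCAT, the site of the POU2F1 factor, in 25 (42.4%) and in 1.59% of all. Among the printed runs, TATAAA began between -42 and -28 bases from the start in HIST1H1E, HIST1H2BD, HIST3H3 and HIST1H4G.

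Signals near the starts of histone genes were dim. The unit of comparison was the mean log2 ratio of SMAD3 IP over mock IP. It was taken over probes within 500 bp of the annotated start of a gene (negative distances are upstream), with at least 2 such probes. Each array was first centred on its median log2 ratio, which lay between 0.237 and 0.725 before centring. Higher and lower therefore mean above and below the array median, and a lower ratio need not mean SMAD3 IP below mock IP. Of the 187 distinct window probes of the members, between 46.5% and 56.1% per replicate were well above background in the mock IP and between 42.2% and 50.3% in the SMAD3 IP, compared with 76.7% to 78.5% and 72.5% to 75.1% over all 80513 window probes. Where a signal was not well above background the scanner software gave a surrogate value. In all, 4 of the tested members had no window probe well above background in either channel on either TGFβ1-stimulated replicate, and 1 had none in unstimulated cells. The replicates of a condition were close across all probes of the arrays (Pearson's r of the log2 ratio 0.896 and 0.918 over 473007 probes, as a description), while the mean correlation between conditions was 0.214. No probe of a member window was saturated.

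**Figure D1:**
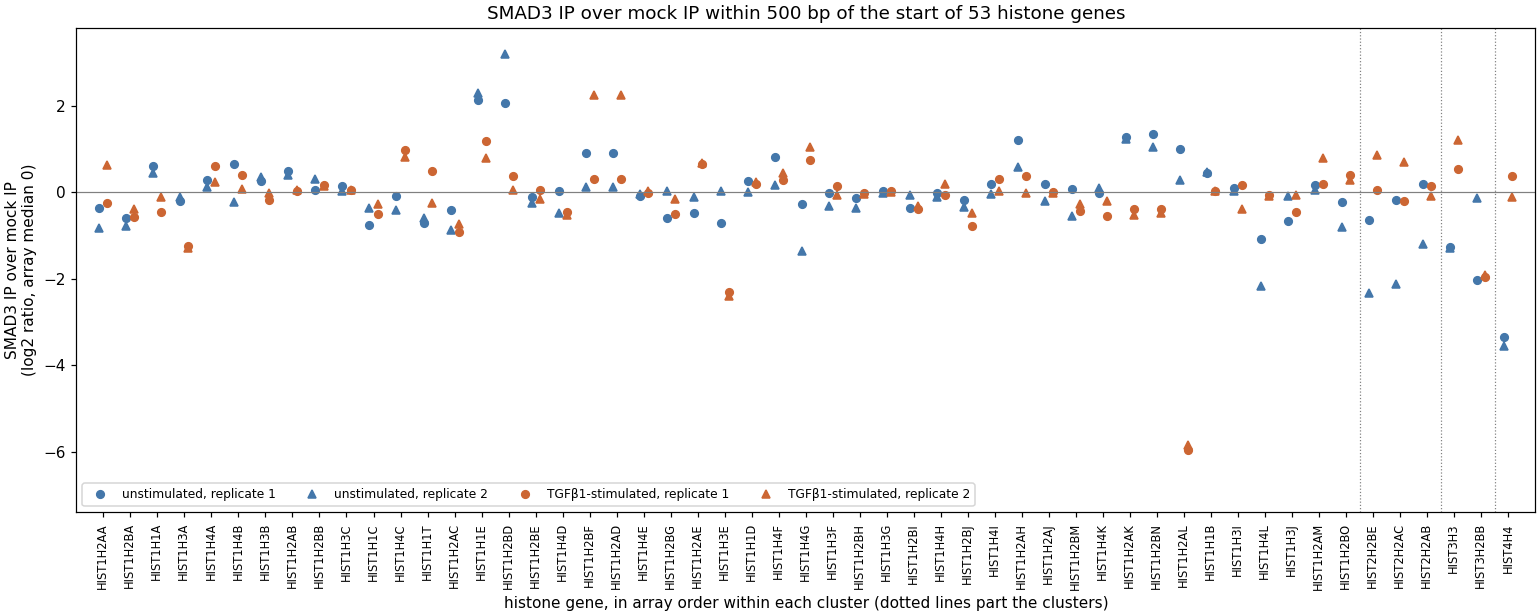
Mean log2 ratio of SMAD3 IP over mock IP (y axis, array median 0) within 500 bp of the start of each of the 53 tested histone genes (x axis). Circles are replicate 1 and triangles replicate 2, blue for unstimulated and orange for TGFβ1-stimulated cells. Most genes lie near 0, and HIST1H2AL after stimulation (-5.97 and -5.84) and HIST4H4 at the basal level (-3.35 and -3.56) lie lowest.

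At the basal level, the centred ratio of SMAD3 IP over mock IP was called above 0 around the starts of 10 of the 53 tested members. It was called below 0 at another 10, while 33 did not pass the test (limma with Benjamini-Hochberg adjustment over 16114 genes, threshold 0.05). Over all genes 29.9% were called higher and 29.5% lower. Both shares of the members, 18.9% each, were below these. The median log2 ratio was -0.15 over the members and -0.00 over all genes. The median absolute log2 ratio was 0.376 over the members and 0.522 over all genes. With normexp background correction 0 members were called higher (limma, 5 at an unadjusted p under 0.05) and 2 lower, where 2.67% and 2.17% of all genes were called. With loess within each array 14 members were higher and 5 lower, compared with 48.5% and 16.7% of all genes. The number of higher members also depended on which unstimulated replicate was left out, which leaves a single replicate in that condition.

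The highest basal ratio was that of HIST1H2BD, which encodes a core histone H2B. Its log2 ratios were 2.05 and 3.20 in the unstimulated replicates (mean 2.63, SE 0.26, adjusted p = 0.000227), and 0.37 and 0.04 in the stimulated ones. Both unstimulated values were above both stimulated values. The mock IP was not well above background at either of its 2 window probes on any of the 4 replicates, so that the mean basal ratio, 6.18-fold, is set against surrogate values. Only the probe at -363 bp carried the signal, with 3.89 and 6.41 in unstimulated cells. The probe at -67 bp gave 0.22 and -0.01, and there the SMAD3 IP was not well above background either.

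The linker histone gene HIST1H1E was higher in both conditions. Its log2 ratios were 2.14 and 2.29 at the basal level (mean 2.21, SE 0.14, adjusted p = 3.7e-05) and 1.18 and 0.80 after stimulation (mean 0.99, adjusted p = 0.00104). No other member was called higher in both conditions. A probe 251 bp downstream of the start carried the highest values, 6.45 and 6.32 in unstimulated and 2.40 and 1.99 in stimulated cells, and it was well above background in both channels on all 4 replicates. The other members with the highest basal estimates were the pair HIST1H2AK (1.27 and 1.23, adjusted p = 0.000178) and HIST1H2BN (1.35 and 1.05, adjusted p = 0.000326), and HIST1H2AH (1.19 and 0.58, adjusted p = 0.00558), which encode H2A, H2B and H2A.

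On the lower side HIST4H4, the only gene of its cluster and an H4 gene on chromosome 12, stood apart. Its basal log2 ratios were -3.35 and -3.56 (mean -3.46, SE 0.15, adjusted p = 1.08e-05), with 0.38 and -0.10 after stimulation. The next lowest were HIST1H4L with -1.07 and -2.17 (adjusted p = 0.00139) and HIST2H2BE with -0.65 and -2.33 (adjusted p = 0.0142). Values of HIST3H3, a gene known for its expression in testis, were -1.28 and -1.29 (adjusted p = 0.000861), and those of HIST1H4G were -0.27 and -1.36 (adjusted p = 0.0273). In each of these genes the 2 basal values lay below 0.

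After TGFβ1 stimulation, the centred ratio of SMAD3 IP over mock IP was called above 0 at 9 of the 53 members and below 0 at 11. The shares over all genes were 25.8% and 33.5%, and the medians were 0.03 over the members and -0.06 over all genes. With normexp 0 were called higher (limma, 10 at an unadjusted p under 0.05) and 4 lower, compared with 12.9% and 8.01% of all genes. With loess 16 were higher and 5 lower, compared with 48.7% and 16.8% of all genes. The counts fell in each direction without either of the stimulated replicates, which leaves a single replicate in that condition. The highest estimate, 1.27 (SE 0.42, adjusted p = 0.0385), belonged to HIST1H2AD and HIST1H2BF, an H2A and an H2B gene in a divergent pair that is read by the same 2 window probes. Their replicates were far apart, with 0.30 and 2.24, and both unstimulated values, 0.91 and 0.12, lay below the higher of them. That higher value came from the probe at -10 bp from HIST1H2AD, with 4.47, where the mock IP of that replicate was not well above background. The H4 genes HIST1H4G (0.75 and 1.04, adjusted p = 0.019) and HIST1H4C (0.97 and 0.81, adjusted p = 0.00145) and the H3 gene HIST3H3 (0.54 and 1.20, adjusted p = 0.00473) came next after HIST1H1E, described above.

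The lowest ratio of any tested member was that of the H2A gene HIST1H2AL after stimulation. Its log2 ratios were -5.97 and -5.84 (mean -5.90, SE 0.18, adjusted p = 3.11e-06), and its basal values were 0.99 and 0.28. The H3 genes HIST1H3E (-2.31 and -2.40, adjusted p = 8.64e-05) and HIST1H3A (-1.24 and -1.28, adjusted p = 0.000166) were also lower after stimulation. The H2B gene HIST3H2BB gave -1.97 and -1.92 (adjusted p = 0.00511), and the H2A gene HIST1H2AC gave -0.92 and -0.74 (adjusted p = 0.00313). HIST1H2AC was lower at the basal level as well (-0.41 and -0.88, adjusted p = 0.00936), as was HIST1H2BA (adjusted p = 0.00302 and 0.0131), a testis-specific H2B gene.

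To determine how TGFβ1 changed the ratio, stimulated replicates were compared with unstimulated replicates in the same fit, so that this comparison shares its arrays with the ones above. The ratio rose at 9 members, fell at 8 and did not pass the test at 36. Over all genes 18.8% rose and 26.3% fell, and the median change was 0.01 over the members and -0.08 over all genes. The 2 unstimulated and the 2 stimulated values did not overlap at 28 of the 53 members (52.8%), compared with 74.1% of all genes. Genes that rose were HIST4H4 (3.60, SE 0.22, adjusted p = 5e-05), HIST3H3 (2.16, SE 0.24, adjusted p = 0.000636), HIST2H2BE (1.95, SE 0.54, adjusted p = 0.0257), HIST1H4G (1.71, SE 0.35, adjusted p = 0.00784) and HIST1H4L (1.55, SE 0.34, adjusted p = 0.0107), followed by HIST1H4C, HIST1H2AE, HIST1H2BO and HIST1H1T with changes between 1.14 and 0.78. Genes that fell were HIST1H2AL (-6.53, SE 0.25, adjusted p = 1.35e-05), HIST1H2BD (-2.42, SE 0.37, adjusted p = 0.00223), HIST1H3E (-2.01, SE 0.26, adjusted p = 0.0011), HIST1H2AK (-1.70, SE 0.16, adjusted p = 0.000328) and HIST1H2BN (-1.64, SE 0.18, adjusted p = 0.000587), followed by HIST1H1E, HIST1H3A and HIST1H1A with changes between -1.22 and -0.81. With normexp background correction 1 member rose and 3 fell, compared with 3.01% and 4.02% of all genes. With the median of the window probes in place of the mean 3 rose and 5 fell, compared with 11.3% and 14.1% of all genes. Members called in opposite directions in the conditions whose change also passed numbered 5 (9.43%), compared with 7.91% of all genes. The number of rising members also depended on which replicate was left out, and leaving 1 out leaves a single replicate in that condition.

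**Figure D2:**
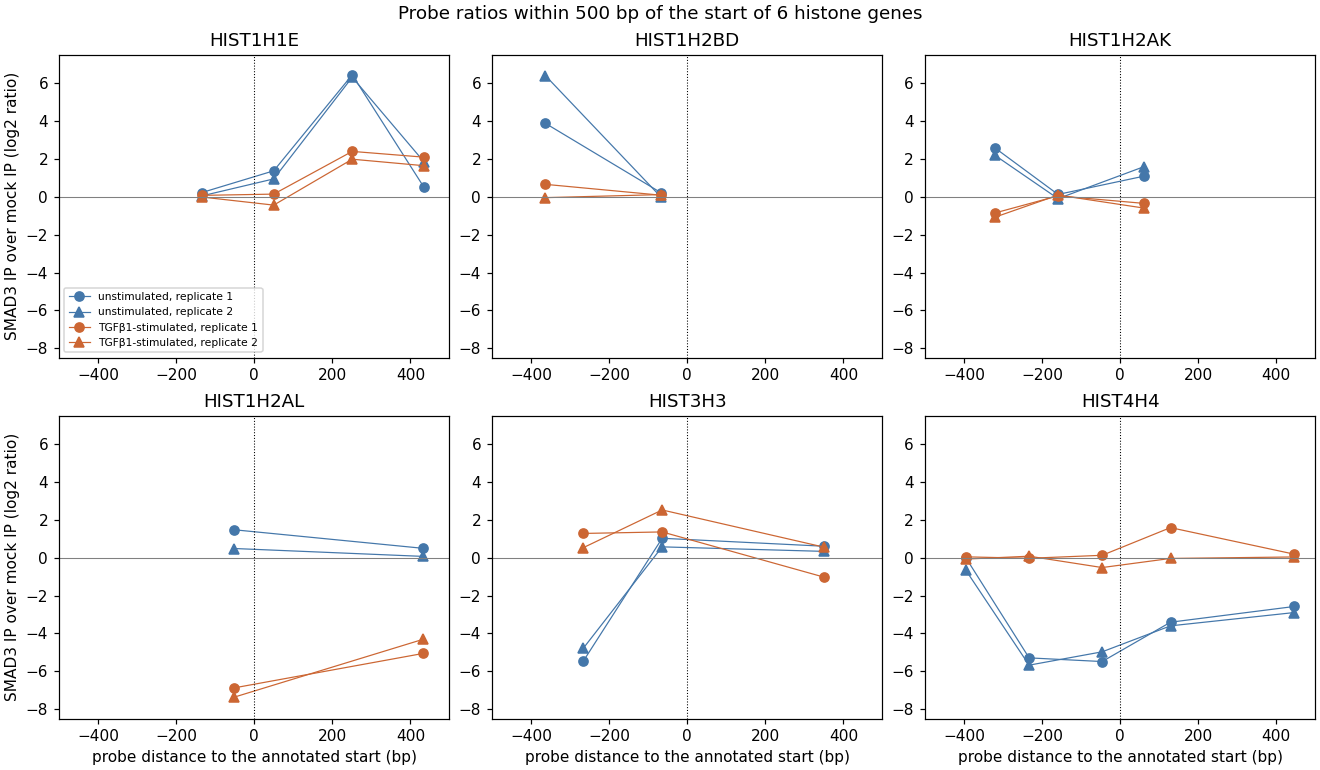
Log2 ratio (SMAD3 IP over mock IP) (y axis) of every probe within 500 bp of the annotated start (x axis, bp) of 6 histone genes. Symbols and colours mark replicates and conditions as in the legend. The conditions part at single probes in HIST1H2BD and HIST3H3 and at most probes in HIST4H4 and HIST1H2AL.

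In several of these members a single probe carried most of the change. As a description, the probe with the largest change was left out in each of the 17 members whose ratio changed. The mean change of the remaining window probes was then below 1 on the log2 scale in 14 and had the opposite sign in 3. HIST1H1A, HIST1H1T, HIST1H2AE and HIST1H2BO, with -0.81, 0.78, 0.96 and 0.86, were below 1 in size already with all probes. Such a choice of probe tends to shrink the mean, and the share over all genes was not computed. In HIST3H3 the probe at -266 bp went from -5.47 and -4.79 to 1.28 and 0.53, and without it the mean change was 0.22. In HIST1H4C the probe at -24 bp rose from -0.57 and -2.23 to 4.99 and 5.14, while the other 6 probes averaged a change of 0.25. At that probe the mock IP was not well above background on either stimulated replicate, so that 4.99 and 5.14 are set against surrogate values. In HIST1H2BD, HIST1H2BN and HIST2H2BE, each with 2 window probes, the remaining probe changed by -0.00, 0.06 and 0.13.

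The 3 members that kept a mean change over 1 were HIST4H4, HIST1H2AL and HIST1H4L. In HIST1H4L it was 1.20 without the probe at -296 bp. In HIST4H4 the mean change without its strongest probe was still 3.12, and 4 of its 5 window probes, from -233 to 446 bp, had basal ratios between -2.58 and -5.68 in both replicates. After stimulation these probes gave values between -0.52 and 1.59. In HIST1H2AL the 2 window probes, at -51 and 433 bp, gave -6.88 and -7.37 and -5.06 and -4.31 after stimulation, against values from 0.07 to 1.48 at the basal level.

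A log2 ratio can change through either channel, and the mock IP was therefore examined on its own. Its signal at the window probes rose at 3 members and fell at 2 with stimulation (limma, the same threshold), where 5.73% and 6.4% of all genes rose and fell, and the median change was 0.32 over the members and 0.21 over all genes. All 5 were members whose ratio moved the opposite way. These counts depended strongly on each replicate and moved widely, over the members as over all genes, when 1 was left out. Leaving 1 out leaves a single replicate in that condition, so that such counts are not given here. The mock IP rose by 9.04 on the log2 scale at HIST1H2AL (SE 0.36, adjusted p = 0.0047), by 5.06 at HIST1H3E (adjusted p = 0.00546) and by 2.51 at HIST1H3A (adjusted p = 0.0141). At HIST1H3E the basal mock IP was well above background at 2 of 4 probes in replicate 1 and at 0 in replicate 2, and at -41 bp in neither, so that its basal level rests largely on surrogate values. It fell by 7.29 at HIST4H4 (SE 0.28, adjusted p = 0.0047) and fell by 3.42 at HIST3H3 (adjusted p = 0.0185).

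In HIST1H2AL the mock IP signal, relative to the array median, was -0.59 and 0.10 in unstimulated and 8.60 and 8.99 in stimulated cells, and the SMAD3 IP signal was 0.59 and 0.50 and then 2.65 and 3.24. In unstimulated cells 0 of its 2 window probes in replicate 1 and 1 in replicate 2 were well above background in the mock IP, so that this basal level rests on surrogate values. In HIST4H4 the mock IP signal was 6.70 and 6.54 at the basal level and -0.89 and -0.46 after stimulation, and the SMAD3 IP went from 3.91 and 3.66 to 0.07 and 0.25. Both channels of both genes thus moved the same way and the mock IP moved further. After stimulation 1 and 2 of the 5 HIST4H4 probes were well above background in each channel.

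Over the 17 members whose ratio changed, the mock IP estimate had the opposite sign to the ratio in 15 and was larger in size than the change in SMAD3 IP signal in 13. Over all 7266 genes whose ratio changed the opposite sign was found in 84.2%. The mock IP is the denominator of the ratio, so that opposite signs are built into these counts. The SMAD3 IP signal itself moved in the direction of the ratio at 9 of the 17 members, and its change was not tested. At the other 8 it moved against the ratio. The ratio fell but SMAD3 IP changed by 2.94, 2.40, 1.29 and 0.39 at HIST1H3E, HIST1H2AL, HIST1H3A and HIST1H1E. The ratio rose but SMAD3 IP changed by -3.62, -1.38, -0.56 and -0.25 at HIST4H4, HIST3H3, HIST1H1T and HIST1H2AE. Among the 9 that moved with the ratio, SMAD3 IP fell by 1.99, 0.88 and 0.65 at HIST1H2BD, HIST1H2AK and HIST1H2BN. It rose by 1.24, 1.14 and 1.04 at HIST1H4C, HIST1H2BO and HIST1H4G. The mock IP changed by 0.55, 0.93 and 1.11 at the former genes and by 0.21, 0.39 and -0.56 at the latter. These mock IP changes did not pass the test (limma, adjusted p between 0.205 and 0.756). At HIST1H2AK and HIST1H2BN they were nevertheless larger in size than the changes in SMAD3 IP.

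**Figure D3:**
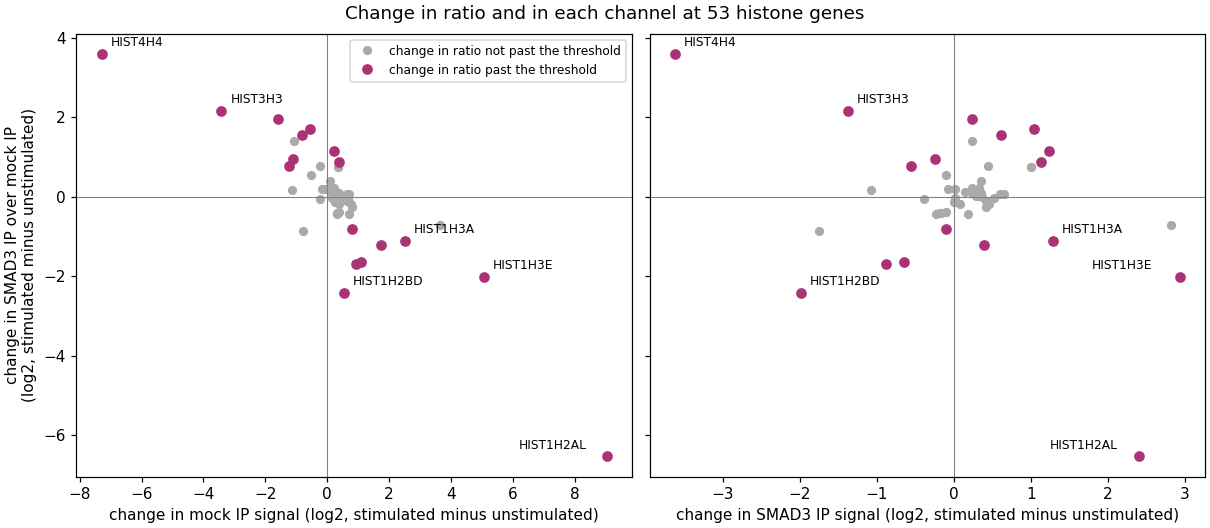
Change in the log2 ratio of SMAD3 IP over mock IP (y axis) against the change in mock IP signal (left) and in SMAD3 IP signal (right), all as TGFβ1-stimulated minus unstimulated on the log2 scale, at 53 histone genes. Members whose ratio changed are coloured, and the 2 largest mock IP changes belong to HIST1H2AL (9.04) and HIST4H4 (-7.29).

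The histone classes were compared by their counts, beside the shares of all genes given above. Among the 6 linker histone H1 genes, all tested, the basal ratio was higher at HIST1H1A (0.60 and 0.44), HIST1H1B (0.45 and 0.46) and HIST1H1E and lower at HIST1H1C (-0.75 and -0.36) and the testis-specific HIST1H1T (-0.71 and -0.61). HIST1H1D gave 0.27 and -0.00 and did not pass (adjusted p = 0.4). With stimulation HIST1H1A fell by 0.81 and HIST1H1T rose by 0.78 (adjusted p = 0.0136 and 0.0478), and after it only HIST1H1E was called. The call of HIST1H1C depended on its probes, since the basal ratio was 0.71 where only probes well above background were used, and that of HIST1H1A turned to a change of 0.04 with normexp.

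Among 12 tested H4 genes, 4 rose and 0 fell with TGFβ1 (limma, adjusted p under 0.05), namely HIST1H4C, HIST1H4G, HIST1H4L and HIST4H4, where 18.8% of all genes rose and 26.3% fell. The median change over the H4 genes was 0.11, and those of the other classes lay between -0.18 and 0.19. Of 12 tested H2A genes 1 rose and 2 fell, of 14 H2B genes 2 rose and 2 fell, and of 9 H3 genes 1 rose and 2 fell. No difference between classes was tested.

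Outside the large HIST1 cluster on chromosome 6 the mean basal ratios of all 6 tested genes were below 0. The HIST2 genes on chromosome 1 gave -0.65 and -2.33 (HIST2H2BE), -0.19 and -2.13 (HIST2H2AC, adjusted p = 0.0561) and 0.18 and -1.21 (HIST2H2AB, adjusted p = 0.183) in unstimulated cells, and between -0.20 and 0.87 in stimulated cells. HIST2H2BE and HIST2H2AC are a divergent pair that shares 2 window probes. Their ratios changed by 1.95 and 1.41, and only the former passed the test (limma, adjusted p = 0.0257 and 0.107). In the HIST3 cluster, also on chromosome 1, the values of HIST3H2BB came from 2 unlike probes. The probe 393 bp downstream gave between -3.07 and -3.90 in all 4 replicates, while the probe at -45 bp gave -0.999, 2.87, -0.30 and 0.07. HIST3H2A had this latter probe as its single window probe and was not tested.

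In all, 11 members were not tested. HIST1H2AG, HIST1H2AI, HIST1H2BC, HIST1H2BL, HIST1H3H, HIST1H4J and HIST3H2A had 1 window probe each, and HIST1H2BK, HIST1H3D, HIST2H2AA3 and HIST2H2AA4 had 0. The nearest probe of HIST1H2BK, an H2B gene, lay 544 bp downstream of the start and gave 0.45 and 0.08 at the basal level and -6.12 and -7.59 after stimulation. HIST2H2AA3 and HIST2H2AA4, copies of the same H2A gene, share all of their 25 probes and cannot be told apart here. Their nearest probe, at -823 bp, gave 3.30 and 2.86 in unstimulated and 0.11 and 2.71 in stimulated cells. The remaining single window probes gave values between -1.87 and 2.87.

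Neighbouring members were not independent. Probes were shared by 17 pairs of members, and within 500 bp of both starts by 11 of them. HIST1H2AK and HIST1H2BN share 2 window probes, 1 of which lies at -320 bp from the former and at -2 bp from the latter. It gave 2.58 and 2.19 at the basal level and -0.85 and -1.07 after stimulation, was well above background in both channels on all replicates, and counts towards both genes. HIST1H2AE and HIST1H2BG also share 2 window probes, but HIST1H2AE rose (0.96, adjusted p = 0.0065) through the probe 235 bp downstream of its start, and HIST1H2BG changed by -0.05 (adjusted p = 0.894). HIST1H2AM and HIST1H2BO share 1 window probe and changed by 0.39 (adjusted p = 0.217) and 0.86 (adjusted p = 0.0212). HIST1H1A and HIST1H3A share 13 probes but none within 500 bp of both starts, and both fell.

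**Figure D4:**
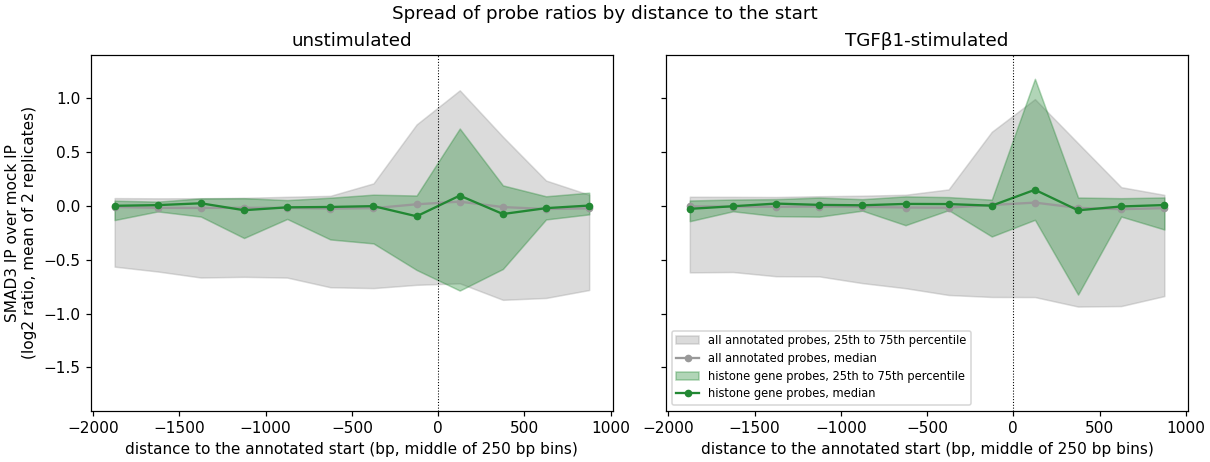
Median (lines) and 25th to 75th percentile (bands) of the log2 ratio of SMAD3 IP over mock IP, as the mean of 2 replicates, in bins of 250 bp by distance to the annotated start, for histone gene probes (green) and all annotated probes (grey) in unstimulated (left) and stimulated cells (right). The bands of the histone gene probes are the narrower ones and widen in the first 250 bp downstream, to between -0.79 and 0.72 at the basal level.

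By distance, histone gene probes differed from other probes in their spread and less in their median. In the 250 bp upstream of the start, the 62 probes of the members had a median log2 ratio of -0.10 and a 25th to 75th percentile of -0.59 to 0.10 in unstimulated cells, compared with 0.01 and -0.73 to 0.75 over all 20923 probes. In the 250 bp downstream the 37 member probes spread from -0.79 to 0.72 around a median of 0.09, and after stimulation from -0.13 to 1.18 around 0.15. All 21354 probes of that bin spread from -0.72 to 1.07 and from -0.85 to 0.99. The median signal of the member probes in that bin was also the highest near the start, 0.95 in the mock IP and 1.53 in the SMAD3 IP at the basal level, against 3.13 and 3.62 over all probes. The part of the dimmer signal in the narrow spread was not tested.

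Peaks were fitted to all probes of a gene with the shape expected from fragments of 200 to 700 bp, as a height with no test. The height exceeded 1.5 in both replicates at 26 of 57 members with at least 4 probes at the basal level (45.6%) and at 18 (31.6%) after stimulation, compared with 70.7% and 65.6% of all genes. When the ratios were turned in sign, which looks for ratios below the array median, 41 and 40 members passed, compared with 91.2% and 91.2% of all genes. The sign-reversed ratios passed more often than the ratios themselves, in the members as in all genes, so that a height over 1.5 does not set SMAD3 IP apart from mock IP here. With normexp the members over the threshold were 4 and 10, compared with 37.0% and 46.5% of all genes.

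In 11 members the height exceeded 1.5 in both conditions, in 15 at the basal level alone and in 7 after stimulation alone. The highest joint basal heights were those of HIST1H1E (22.6, centred 233 bp downstream), HIST2H2AB (19.0, centred at -3120 bp) and HIST1H2BD (14.3, centred at -299 bp). The highest after stimulation were HIST3H2BB (11.7, 2355 bp downstream), HIST1H2BL (6.30, 3643 bp downstream, with 42.0 in replicate 1 and 1.12 in replicate 2), HIST1H2BO (5.52 and 6.18 in the replicates, 470 and 495 bp downstream) and HIST1H2AH (5.98, 131 bp downstream). HIST1H2AH was high in both conditions, and its probe at 131 bp gave 4.30 and 3.76 at the basal level and 4.31 and 3.94 after stimulation. The H4 gene HIST1H4A, chosen after its values were seen, showed a like height in all 4 replicates (3.99, 4.47, 4.22 and 3.08), centred 149 to 199 bp downstream of the start.

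Other histone-related genes were compared in the same fits. Of 13 tested replication-independent variant genes, whose products replace the S phase histones outside replication, 7 were higher and 3 lower at the basal level, 5 higher and 4 lower after stimulation, and 2 rose and 4 fell. The shares of all genes beside these counts are 29.9% and 29.5%, 25.8% and 33.5%, and 18.8% and 26.3%. The H1 variant gene H1FOO, known from oocytes, fell from 0.84 and 0.34 to -1.72 and -0.96 (adjusted p = 0.00235). H2AFJ, which is the neighbour of HIST4H4, rose from -1.51 and -1.24 to -0.08 and 0.08 (adjusted p = 0.00122), and its mock IP fell by 1.63 (adjusted p = 0.0269). H2AFY, which encodes macroH2A, fell by 1.32 (adjusted p = 0.0128).

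Of 19 tested genes for histone gene transcription and 3′ end processing, 6 were higher and 7 lower at the basal level, 6 higher and 6 lower after stimulation, and 3 rose and 7 fell. The shares of all genes beside these counts are again 29.9% and 29.5%, 25.8% and 33.5%, and 18.8% and 26.3%. CCNA2, the gene of the S phase cyclin A2, rose from -2.90 and -3.04 to 1.33 and 1.24 (adjusted p = 1.35e-05), while its mock IP fell by 5.07 (adjusted p = 0.011). CSTF2, a subunit of the cleavage machinery, rose from -3.40 and -3.43 to -0.21 and 0.26 (adjusted p = 4.93e-05). NPAT, the coactivator that binds histone promoters in S phase, fell from -0.16 and 0.04 to -2.13 and -1.68 (adjusted p = 0.000647), while its mock IP rose by 2.38 (adjusted p = 0.0151). In each of these genes the mock IP moved against the ratio, as at HIST4H4 and HIST1H2AL and in 84.2% of all genes whose ratio changed. Opposite signs are built in here too, since the mock IP is the denominator of the ratio.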

How the data were processed

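Chromatin of A549 cells was measured on 8 two-colour Agilent promoter arrays, 2 slides for each of 4 replicates. The authors deposited scanner files of Agilent Feature Extraction 9.5.1.1 with the processed intensity of both dyes, background-subtracted and dye-normalised by that software, and a matrix of the same log2 ratios, which differed from the scanner ratios by at most 3.13e-06. The genome build is not given in the files, and no array coordinate is printed. Of 474411 probes 1404 with outlier flags were left out. Log2 ratios of the deposited intensities (Cy5 over Cy3) were centred on the median of each array, the slides of a replicate were put together, and the mean of the probes within 500 bp of an annotated start was taken for each gene with at least 2 such probes. These 16114 genes were fitted with limma 3.58.1 (lmFit and eBayes, both conditions in 1 fit), with Benjamini-Hochberg adjustment and a threshold of 0.05. The fit was tested on simulated data. The p-values measure only the spread between these replicates, pooled over both conditions and moderated by the spread of all 16114 genes. The number of arrays limits their precision. Each array lay on a slide of its own, so that no batch of several arrays could be formed.

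Named members were, in each comparison, up to 5 with the highest and up to 5 with the lowest estimate past the threshold, all HIST2, HIST3, HIST4 and H1 genes and the partners of named pairs, and in each of the other gene lists up to 3 genes with the largest change. The lists hold 17 variant genes and 21 genes of transcription and processing. The members and lists were chosen with earlier results of these data known. Peak heights were fitted by least squares on a 25 bp grid. The alternatives were other background corrections, normalisations, filters, probe windows and centrings, the deposited matrix, the replicate block, and each replicate left out.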

Additional observations from a re-analysis of the deposited data

Results flagged for a closer look

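In 5 members the ratio passed the threshold in opposite directions in the 2 conditions, and the change between conditions passed it too (limma, adjusted p), which is 9.43% of the tested members, compared with 7.91% of all genes. HIST1H2AK, HIST1H2BN and HIST1H2AL had centred ratios above 0 at the basal level and below 0 after TGFβ1, with changes of -1.70, -1.64 and -6.53 on the log2 scale. The stimulated values of HIST1H2AK (-0.38 and -0.52) and HIST1H2BN (-0.40 and -0.49) were smaller in size than the array medians removed by centring (0.404 and 0.631). Before centring, SMAD3 IP was therefore not below mock IP at these 2 genes. HIST3H3 and HIST1H4G were lower at the basal level and higher after TGFβ1, with changes of 2.16 and 1.71. The values of HIST1H2AK and HIST1H2BN are not independent, since they share 2 window probes. With probes from 2000 bp upstream to 800 bp downstream HIST1H2BN turned to -1.16 at the basal level and to a rise of 0.90. Both passed the threshold there (limma, adjusted p = 0.000204 and 0.00598). In HIST1H2AL and HIST3H3 the mock IP signal changed as well, by 9.04 and -3.42.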

How the results depend on the processing

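Of 847 single-gene results under an alternative, 604 kept their direction and passed the threshold, 207 kept their direction without passing it and 36 changed sign. Some of those that changed sign passed the threshold in the new direction and are named below. The cause of these changes was not tested. Counts are given as higher and lower members for the basal level, for stimulated cells and for the change, against 10 and 10, 9 and 11, and 9 and 8.

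With normexp the counts were 0 and 2, 0 and 4, and 1 and 3, and the mock IP counts were 0 and 0 (limma, 4 and 1 at an unadjusted p under 0.05) in place of 3 and 2. For the ratio, the shares of all genes called with normexp fell as well, to between 2.17% and 12.9%. For the mock IP 0% of all genes were called in either direction with normexp. Peak heights over 1.5 then numbered 4 and 10, compared with 37.0% and 46.5% of all genes. With upstream probes only, which left 38 tested members in place of 53, 4 members were higher at the basal level, 2 after stimulation, 5 rose and 4 fell, and the mock IP rose at 1. Over all genes these shares were 23.8%, 21.6%, 16.1%, 20.8% and 6.51%. With the nearest probe the basal counts were 5 and 5, the stimulated counts 5 and 7, and 4 rose. The shares of all genes were 32.7% and 22.3%, 30.8% and 24.6%, and 16.7%. With loess 5 were lower at the basal level, and 16 higher and 5 lower after stimulation, compared with 16.7%, 48.7% and 16.8% of all genes. With probes from 2000 bp upstream to 800 bp downstream, which gave 61 tested members, 17 were lower at the basal level and the mock IP rose at 6. Of all genes 37.9% and 6.31% did so. With only probes well above background, which left 23 members, 5 were lower after stimulation, 5 fell, and the mock IP rose at 0 (limma, 4 at an unadjusted p under 0.05) and fell at 1. Of all genes 37.2% were lower and 30.7% fell, and the mock IP rose at 4.64% and fell at 5.25%. With centring on the probes near starts the mock IP rose at 5 and fell at 8, compared with 15.6% and 15.1% of all genes. With the median of the window probes, chosen after seeing the data, the counts were 4 and 4, 2 and 4, and 3 and 5, and the mock IP fell at 1. The matching shares of all genes were 17.9% and 17.4%, 16.6% and 20%, 11.3% and 14.1%, and 6.71%. When 1 replicate was left out, the counts ranged from 5 to 11 and 8 to 13 at the basal level, 4 to 10 and 4 to 13 after stimulation, 4 to 14 and 7 to 9 for the change, 0 to 24 and 0 to 13 for the mock IP, and 28 to 33 and 27 to 27 for the peak heights.

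The deviations of replicates of the same number correlated with r = 0.0209 for the ratio and 0.12 for the mock IP signal (473007 probes, 2 pairs), and the labels do not pair them. With the replicate block 9 members rose and 9 fell, which included 9 and 8 of those called without it, and the mock IP rose at 4 and fell at 2. Of all genes 19.8% rose and 27.4% fell, and the mock IP rose at 4.53% and fell at 4.39%. With the block and the promoter GC correction, chosen after seeing the data, 8 rose and 9 fell among 48 members. Of all genes 20% rose and 25.7% fell there. The planned correction for probe GC content, alone and with the block, was not run because no probe sequence was at hand.

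Values below are log2 ratios or changes that turned in sign, each with its quantity. The following passed the threshold in the new direction (limma, adjusted p). They were HIST1H1C (basal, 0.00266) and HIST1H3A (stimulated, 0.0445) with only probes well above background, and HIST1H4A (stimulated, 0.0373) with upstream probes. With the nearest probe it was HIST1H2BO (change, 0.0168), and with the widest window HIST1H2BN (basal, 0.000204, and change, 0.00598). With upstream probes only the sign turned for HIST1H1B -0.0561 (basal), HIST1H1T 0.0171 (basal), HIST1H4F -0.15 (basal), HIST1H2AE -0.0696 (stimulated) and HIST1H4A -0.83 (stimulated). With only probes well above background the sign turned for HIST1H1C 0.71 (basal), HIST1H3A 0.47 (stimulated), HIST1H3A 0.37 (change) and HIST1H3A -0.46 (mock IP change). With the nearest probe the sign turned for HIST1H1C 0.34 (basal), HIST1H2AC 0.34 (basal), HIST3H3 0.80 (basal), HIST1H1E -0.14 (stimulated), HIST1H2BA 0.0256 (stimulated), HIST1H2BJ 0.0473 (stimulated), HIST1H3A 0.15 (stimulated), HIST1H4A -0.21 (stimulated), HIST1H1A 0.33 (change), HIST1H2BO -1.97 (change) and HIST1H3A 0.0848 (change). With the median of the window probes the sign turned for HIST1H1C 0.14 (basal), HIST3H3 0.47 (basal), HIST1H3A 0.15 (stimulated), HIST1H4A -0.0878 (stimulated), HIST1H4C -0.028 (stimulated), HIST1H3A 0.0848 (change) and HIST1H4C -0.0214 (change). With probes from 2000 bp upstream to 800 bp downstream the sign turned for HIST1H2AL -0.26 (basal), HIST1H2BD -0.38 (basal), HIST1H2BN -1.16 (basal), HIST1H1T -0.0875 (change), HIST1H2BD 0.12 (change) and HIST1H2BN 0.90 (change). With normexp the sign turned for HIST1H2BO 0.00351 (basal), HIST1H4D 0.0248 (stimulated) and HIST1H1A 0.0438 (change).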
